A study of Ovis aries with 6 samples.

Results

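The genes described here are the chemokines, the interleukins and their receptors in sheep muscle. They were taken by name from the deposited gene table, as every gene symbol that starts with CCL, CCR, CXCL, CXCR or IL followed by a digit. This gave 120 of the 23144 genes, and no measured value was used in the choice. By role, there were 19 CC chemokines, 9 CXC chemokines (IL8 included), 9 CC receptors, 5 CXC receptors, 34 interleukins, 37 interleukin receptors, 6 antagonists and decoy receptors, and 1 enzyme, IL4I1. The table also held names outside this pattern, 20 in all, that it described as genes of these families, among them IL-1B for interleukin 1 beta and NPY3R for CXCR4. Those are not members and are used only where stated.

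The muscle was longissimus dorsi from females aged 1 year, 3 of the breed Qianhua Mutton Merino (QHMM) and 3 of the breed Small Tail Han (STH). QHMM is a newer breed for mutton and wool, made from South African Mutton Merino males and Northeast Fine-wool females of China, and STH is a traditional local breed. Husbandry was shared by all 6 animals, and breed was the factor compared. Poly(A) RNA of each animal gave 1 library, which was read on an Ion Proton instrument. The comparison was STH vs. QHMM, and a negative log2 fold change is a lower value in STH.

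Chemokines are small secreted proteins that steer the migration of cells that carry the matching receptor. They are divided into CC and CXC families by the spacing of conserved cysteines, and their receptors span the membrane and signal through G proteins. Interleukins are secreted signals, mostly between immune cells, and their receptors are built from ligand-binding chains and shared signalling chains. In skeletal muscle such genes are expressed by resident macrophages, lymphocytes, vessel cells, fat cells and fibroblasts as well as by the fibres. A tissue library therefore mixes these sources, and fewer cells of a type cannot be told apart from less RNA per cell.

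The libraries held between 10982191 and 14334544 reads on genes. The first principal component of all tested genes (44.1% of the variance) separated the breeds, and the second (19.1%) set QHMM replicate 2 and STH replicate 3 apart from the other 4 libraries. Of all 12506 genes tested, 203 were higher and 229 lower in STH at an FDR below 0.05 and a fold change above 1.5 (edgeR quasi-likelihood test, Benjamini-Hochberg adjustment over all tested genes). The p-values set the breed difference against the spread between the 3 animals of each breed, which was estimated with information shared over all tested genes. Muscle fibre markers summed to between 102100 and 153200 RPKM, and 2 of 8 tested were called by edgeR, both lower in STH (OMYHCS and TNNT1), and DESeq2 called ACTN3 as well.

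Most of the interleukins themselves had few reads or none, whereas most of their receptors were read in every library. Reads were found in all 6 libraries for 58 of the 120 genes, in some libraries for 41 and in none for 21. Among the interleukins, 5 of 34 had reads in every library and 14 had none, which included IL17A, IL17F, IL21, IL9, IL3, IL24 and IL26. Among the interleukin receptors, 25 of 37 had reads in every library and 3 (IL23R, IL1RL2 and IL17REL) had none. A count of 0 allows up to 3 reads, for counting error only, which is 0.209 CPM (the count scaled by the library total) in the deepest library and 0.273 CPM in the shallowest.

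Several interleukins that define T cell responses were represented by isolated reads. IL2, IL4 and IL5 each had 1 read over the 6 libraries and IL13 had 4, while their receptor chains ranged widely. IL4R had 1816 reads, IL13RA1 1194, IL2RB 1123 and IL2RG 674, whereas IL2RA had 24, IL5RA 10 and the decoy IL13RA2 1. Chemokine genes were detected more evenly. CC chemokines had reads in every library for 12 of 19 genes and in none for 2 (CCL20 and CCL28), and the CXC chemokines had reads in every library for 5 of 9. All CC and CXC receptors had at least 1 read, with 5 of 9 and 3 of 5 read in every library.

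**Figure D1:**
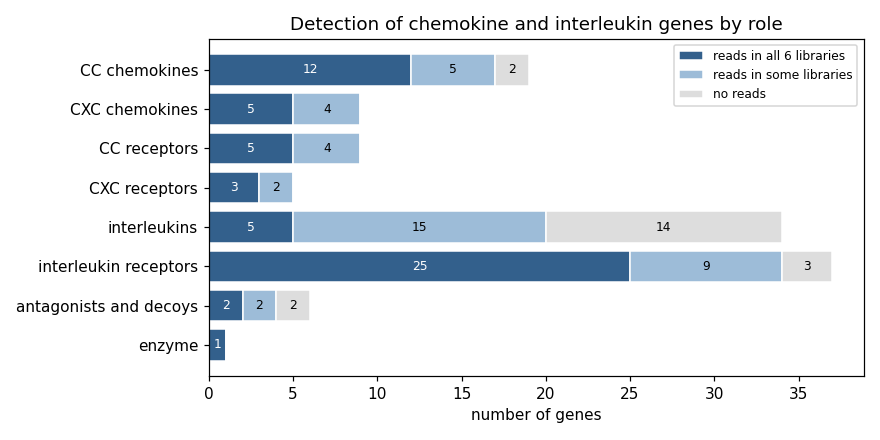
Number of genes of each role (horizontal axis) with reads in all 6 libraries (dark), in some libraries (light) and with no reads (grey). Interleukins have 14 genes without reads, against 3 among interleukin receptors.

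Together the 120 genes took 0.0379% to 0.0651% of the reads of a library. Levels between genes are compared in RPKM, which divides the reads of a gene by its length and by the library total, as deposited. CCL14, a chemokine found at steady levels in plasma, had the highest mean level, 104 RPKM. In replicates 1 to 3 its level was 62.9, 73.2 and 94.2 RPKM in QHMM, and it was 183, 133 and 79.2 RPKM in STH. It was the most abundant of the 120 in 5 of the 6 libraries, where it made up 24.0% to 37.7% of their summed RPKM. In QHMM replicate 1 the first place went to CCL2, the chemokine that recruits monocytes through CCR2, with 31.0% of the summed RPKM.

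After CCL14, the mean RPKM was 34.8 for CCL2, 25.3 for CXCL12, 20.7 for CCL21, 18.4 for CXCR7 and 18.3 for IL6R. IL11RA followed at 12.4, CCL1 at 10.5, IL17RA at 9.42 and IL27RA at 8.90. CXCL12 guides haematopoietic and muscle precursor cells, CXCR7 is its scavenging receptor, and CCL21 is made by lymphatic vessels. The RPKM of CCL1 rests on few reads, 159 over the 6 libraries, and on a short gene model of about 195 bases, as implied by its counts and RPKM. In all, 8 of the 120 genes had a mean of at least 10 RPKM and 37 a mean of at least 1 RPKM. Genes named outside the pattern are not ranked here. Among them, a gene described as CCL3L3 had 30.55, 26.92 and 37.74 RPKM in QHMM and 78.86, 34.89 and 14.3 RPKM in STH.

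**Figure D2:**
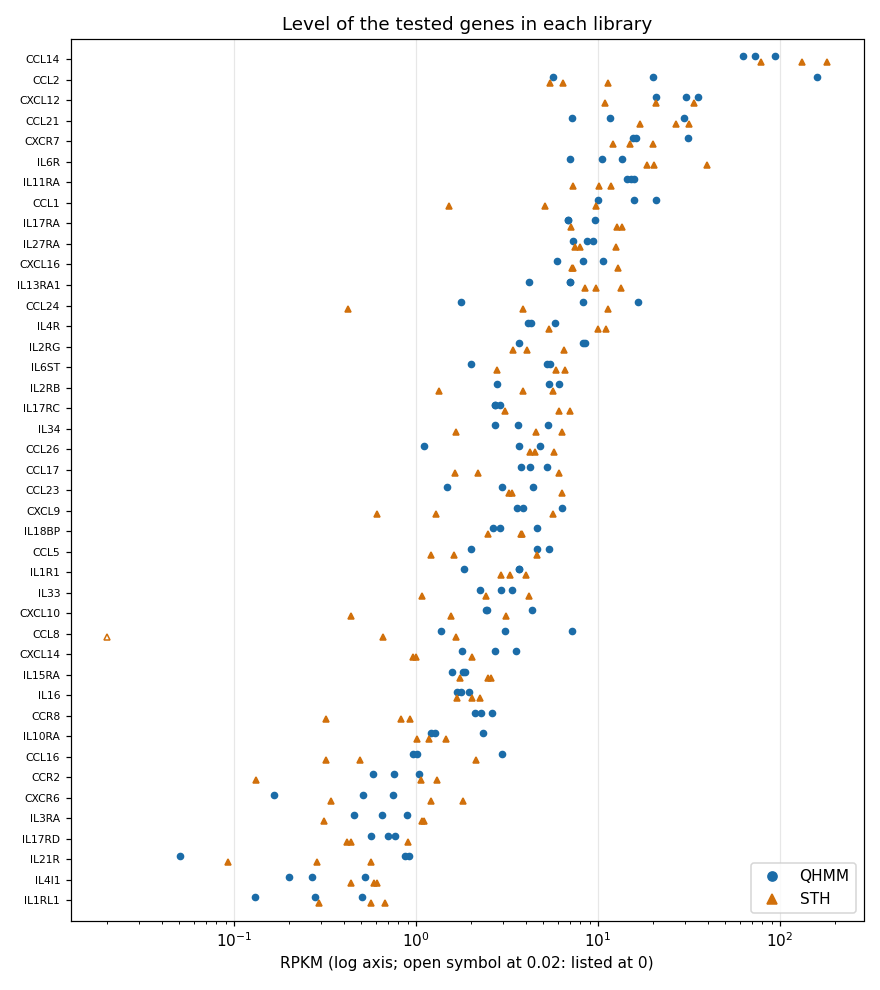
Level of the tested genes in each library, 1 gene left out, in RPKM on a log axis, with genes ordered by mean level (circles QHMM, triangles STH, open symbol at the left for a value listed at 0). CCL14 lies highest, and the libraries of the 2 breeds are interleaved for most genes.

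The filter on low counts left 43 of the 120 genes for the test between breeds: 16 of the 28 chemokines, 3 of the 9 CC receptors, 2 of the 5 CXC receptors, 3 of the 34 interleukins, 17 of the 37 interleukin receptors, IL18BP and IL4I1. None of the 43 passed the filter through the libraries of 1 breed alone, and 28 were above its level in every library.

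CCR8 was the 1 gene called among the 43, lower in STH. That is 2.33% of the tested genes of these families, beside 3.45% of all tested genes called in either direction and 1.83% called lower. DESeq2 called 3 of the 43 (6.98%, beside 7.8% of all tested genes). An unadjusted p below 0.05 was reached by 11 of the 43 (25.6%, beside 19.2% of all tested genes), 5 higher and 6 lower in STH. In normalized counts, the libraries of the breeds did not overlap for 8 of the 43 (18.6%, beside 24.7% of all tested genes), 4 in each direction. Of the 8, CCL14, CXCL14 and IL4R did overlap in RPKM, which is scaled by the library total instead. The median log2 fold change was -0.14 over the 43, with 20 values above and 23 below 0, and 0.02 over all tested genes. STH replicate 3 was the lowest library for 13 of the 43 (30.2%, beside 16.2% of all tested genes). STH replicate 1 was the lowest for 1 (2.33%, beside 12.1%). The part of single libraries in the direction of these values was not tested.

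The values were not spread alike over the roles. Of the 16 chemokines tested, 12 had a lower and 4 a higher value in STH, with a median log2 fold change of -0.89. Of all 12506 tested genes, 6026 had a lower and 6480 a higher value. The summed RPKM of all 28 chemokines overlapped between the breeds, with 185.5 to 366.7 in QHMM (median 208.7) and 144.0 to 321.9 in STH (median 226.1). All 5 CXC chemokines had a value below 0, with a median of -1.03, although CXCL16 lay at -0.01 and its sign changed with the processing. Of the 17 interleukin receptors, 11 had a higher and 6 a lower value, with a median of 0.14. No chemokine and no interleukin receptor was called by edgeR (1 of each by DESeq2, CCL1 and IL6R), and these medians carry no test. At an unadjusted p below 0.05 by edgeR stood 1 chemokine higher and 4 lower, and 4 interleukin receptors higher and 1 lower. Among all 12506 tested genes, 1179 stood higher and 1216 lower at that level.

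**Figure D3:**
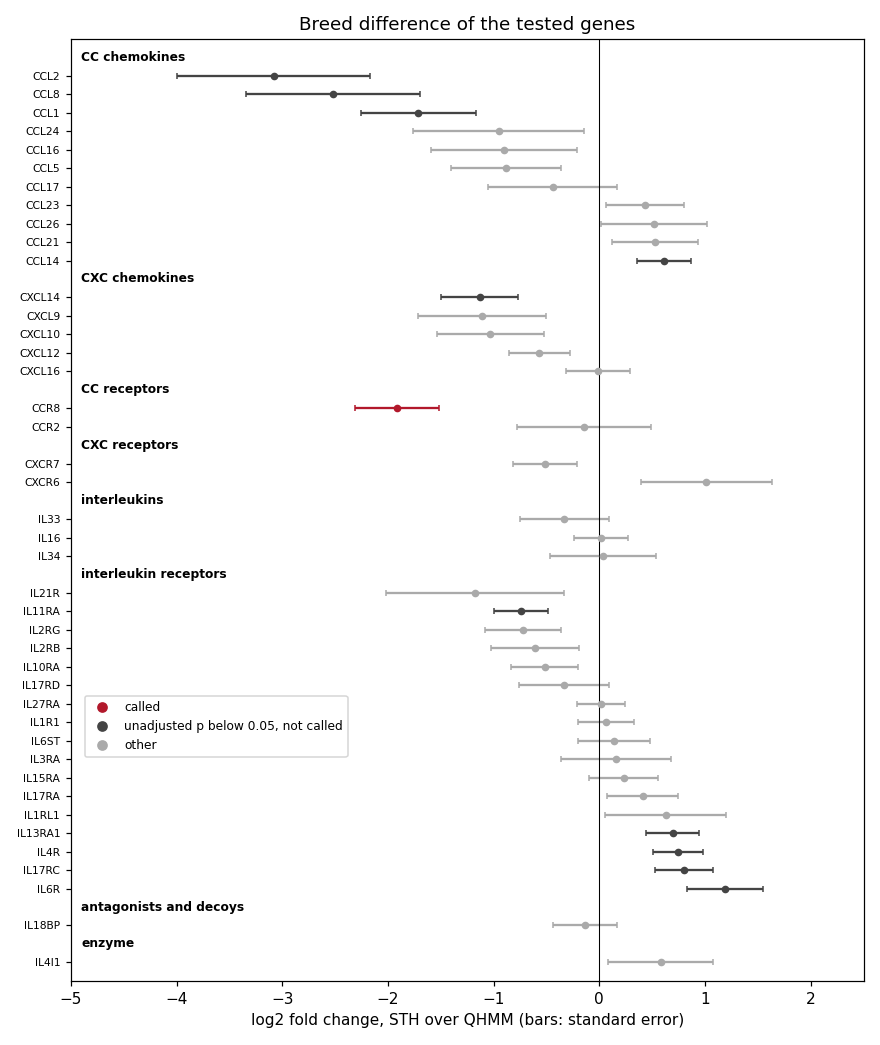
Log2 fold change of STH over QHMM for the tested genes by role, 1 gene left out, with bars of 1 standard error (red for the called gene, dark for an unadjusted p below 0.05, grey for the rest). Of the chemokines 12 of 16 lie left of 0, of the interleukin receptors 11 of 17 lie right of it, and CCR8 at -1.92 is the called gene.

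CCR8 is a receptor found on regulatory and type 2 helper T cells and on skin-homing T cells, and its main ligand is CCL1. In replicates 1 to 3 (the order used for every gene) the QHMM libraries had 40.5, 44.9 and 46.1 normalized counts and the STH libraries 12.5, 15.1 and 6.78. The 3 QHMM libraries lay close together and every one was above every STH library. The means were 43.8 ± 2.92 (SD, n = 3) in QHMM and 11.5 ± 4.25 (SD, n = 3) in STH, a log2 fold change of -1.92 (SE 0.40, edgeR FDR 0.0316). The call rests on between 6 and 45 reads per library. It was lost (FDR 0.0807, 0.0842, 0.0962, 0.0551 and 0.0676) when, in this order, QHMM replicate 1, 2 or 3 or STH replicate 2 or 3 was left out, and held without STH replicate 1 (FDR 0.0497), with log2 fold changes between -2.16 and -1.66.

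CCL1, the ligand of CCR8, was also lower in every STH library, but was not called. QHMM had 25.2, 62.6 and 38.9 normalized counts and STH 20.8, 11.9 and 4.52. The log2 fold change was -1.71 (SE 0.54, edgeR FDR 0.115). The lowest QHMM and the highest STH library lay close to each other. In the order of a RefSeq assembly other than the one used for mapping, CX3CR1 and XIRP1 neighbour CCR8, and they were looked up after the value of CCR8 was seen. XIRP1, which encodes an actin-binding protein of striated muscle, moved the other way (2.32, edgeR FDR 0.0416), and CX3CR1, the fractalkine receptor, stood at -0.59 (edgeR FDR 0.424).

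T and NK cell markers had mostly lower values in STH as well. Of 12 T and NK cell markers tested, 11 had a lower value in STH and 0 were called by edgeR, with a median log2 fold change of -0.76, and 3 had an unadjusted p below 0.05, all lower (CD2, CD4 and LCK). DESeq2 called 1, CD2. CD2 stood at -1.84 (edgeR FDR 0.0520) and CD3E at -0.75 (edgeR FDR 0.298). The summed level of the T and NK list was 16.7 to 27.8 RPKM in QHMM and 8.54 to 19.6 RPKM in STH, GNLY had no read, and CD28, NCR1 and THEMIS had at most 3 reads in any library. All 10 pan-leukocyte markers had a lower value, with a median of -0.45, 0 calls by edgeR (1 by DESeq2, LCP1) and 3 at an unadjusted p below 0.05, and summed levels of 64.9 to 101 RPKM in QHMM and 46.9 to 79.3 RPKM in STH. For both lists the lowest sum was that of STH replicate 3. The part of leukocyte content in the value of CCR8 was not tested.

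CCL2 and CCL8 recruit monocytes, and both were highest in QHMM replicate 1. CCL2 had normalized counts of 1587, 237 and 55.3 in QHMM against 95.7, 49.6 and 75.7 in STH. QHMM replicate 1 was 6.69 times the next highest library, and QHMM replicate 3 lay within the range of STH. The log2 fold change of CCL2 was -3.08 (SE 0.91, edgeR FDR 0.0951). Without QHMM replicate 1 it was -1.0 (edgeR FDR 0.397), and it was past the threshold at -3.62 (edgeR FDR 0.0317) without QHMM replicate 3.

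CCL8 had normalized counts of 77.4, 39.0 and 14.3 in QHMM and 15.0, 6.47 and 0 in STH. The breeds overlapped by 1 library, and the log2 fold change was -2.52 (SE 0.82, edgeR FDR 0.124). It was -3.70 (edgeR FDR 0.0666) without STH replicate 1 and -1.82 (edgeR FDR 0.355) without QHMM replicate 1. CCR2, the receptor of both, showed no such pattern. QHMM had 10.8, 17.7 and 8.19 normalized counts and STH 15.8, 14.0 and 2.26, a log2 fold change of -0.15 (SE 0.63, edgeR FDR 0.929). Macrophage and monocyte markers had a lower value for 11 of 15 tested genes and 0 calls by edgeR or DESeq2 (2 at an unadjusted p below 0.05 by edgeR, both lower), with a median of -0.38. Their summed level was 145 to 165 RPKM in QHMM and 74.4 (replicate 3) to 232 RPKM (replicate 1) in STH, and MARCO and EMR1 had at most 3 reads in any library.

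Among the CXC chemokines, CXCL14 had the lowest unadjusted p. CXCL14 is made by epithelium, fibroblasts and fat. Normalized counts were 54.0, 42.5 and 69.6 in QHMM against 34.1, 18.3 and 22.6 in STH, so that every STH library was below every QHMM library. In RPKM the breeds overlapped, with 1.80 in QHMM replicate 2 and 2.03 in STH replicate 1. The log2 fold change was -1.13 (SE 0.36, edgeR FDR 0.119), which did not pass the threshold. CXCL12 had normalized counts of 701, 574 and 801 in QHMM and 658, 443 and 298 in STH, where the breeds overlapped (-0.57, SE 0.29, edgeR FDR 0.312). Its scavenger CXCR7 had 480.0, 283 and 245 in QHMM and 262, 170.3 and 275 in STH (-0.51, SE 0.30, edgeR FDR 0.389). The gene described as CXCR4, the signalling receptor of CXCL12, stood at -0.05 (SE 0.40, edgeR FDR 0.965).

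The interferon-induced chemokines CXCL9 and CXCL10 were high in 4 libraries and low in the other 2. They are given here after their values were seen. CXCL9 had normalized counts of 39.6, 82.6 and 42.0 in QHMM and 52.4, 12.9 and 7.91 in STH (-1.11, SE 0.61, edgeR FDR 0.351), and CXCL10 had 36.9, 43.7 and 64.5 in QHMM and 39.96, 21.6 and 7.91 in STH (-1.03, SE 0.50, edgeR FDR 0.295). STH replicate 1 lay among the QHMM libraries for both genes, and CXCL9 was called at -2.38 (edgeR FDR 0.0356) in the fit without it. CXCL9 was not called when any other library was left out, with values from -1.325 to -0.696 (edgeR FDR 0.374 to 0.671). Their receptor CXCR3 was below the filter, with 27, 22 and 9 reads in QHMM and 6, 6 and 2 reads in STH, and was not tested.

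CCL14, CCL21, CCL23 and CCL26 were the 4 chemokines with a higher value in STH. CCL14 had normalized counts of 722, 998 and 1062 in QHMM against 1771, 1394 and 1078 in STH. In these counts every STH library was above every QHMM library, although STH replicate 3 and QHMM replicate 3 almost met. In RPKM the breeds overlapped there, with 79.2 in STH replicate 3 and 94.2 in QHMM replicate 3. The log2 fold change was 0.61 (SE 0.25, edgeR FDR 0.219). CCL21, the ligand of CCR7, had 355, 103 and 137 in QHMM and 271, 349 and 242 in STH, and QHMM replicate 1 was the highest of all (0.53, SE 0.41, edgeR FDR 0.524). Without QHMM replicate 1 it was 1.23 (edgeR FDR 0.0865) and without QHMM replicate 2 it was 0.22 (edgeR FDR 0.838).

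The remaining chemokines of the fixed pairs overlapped between the breeds. CCL5, which attracts T cells and macrophages, had normalized counts of 50.4, 52.0 and 18.4 in QHMM and 36.6, 14.0 and 13.6 in STH (-0.88, SE 0.52, edgeR FDR 0.393). CXCL16, a membrane-bound chemokine, had 152, 140.5 and 82.9 in QHMM and 155, 93.8 and 123 in STH (-0.01, SE 0.30, edgeR FDR 0.987). Its receptor CXCR6 had 18.9, 15.4 and 4.10 in QHMM and 25.8, 42.0 and 10.2 in STH (1.01, SE 0.62, edgeR FDR 0.409).

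IL6R, the ligand-binding receptor of interleukin 6, was the most abundant interleukin receptor. The QHMM libraries had 267, 621 and 394 normalized counts and the STH libraries 601, 1403 and 922. The breeds overlapped in 1 place, with QHMM replicate 2 just above STH replicate 1. The log2 fold change was 1.19 (SE 0.36, edgeR FDR 0.102). Of the fits with 1 library left out, IL6R passed the threshold only without STH replicate 1, at 1.43 (edgeR FDR 0.0470). Over these fits the value ran from 0.82 to 1.56, and it was 0.92 (edgeR FDR 0.276) without QHMM replicate 1. IL6ST (gp130), the signalling chain that IL6R shares with IL11RA and other receptors, did not follow it. IL6ST had 229, 100.4 and 217 in QHMM and 235, 229 and 139 in STH (0.14, SE 0.34, edgeR FDR 0.867).

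IL11RA, the receptor of interleukin 11, had the opposite direction to IL6R. Normalized counts were 319.7, 397 and 343 in QHMM against 219.8, 149 and 266 in STH. Every STH library was below every QHMM library, and the log2 fold change was -0.74 (SE 0.25, edgeR FDR 0.141). IL27RA, which also pairs with IL6ST, had 299, 275 and 274 in QHMM and 337, 219.8 and 302 in STH (0.02, SE 0.23, edgeR FDR 0.976).

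The receptor chains of interleukins 4 and 13 had higher values in STH together. IL4R had normalized counts of 263, 222 and 189 in QHMM and 425, 415 and 289 in STH (0.74, SE 0.24, edgeR FDR 0.119). IL13RA1, the chain that joins IL4R in the type II receptor of non-lymphoid cells, had 171, 120.4 and 169 in QHMM and 201, 299 and 246 in STH (0.69, SE 0.25, edgeR FDR 0.165). For both genes every STH library was above every QHMM library in normalized counts, and neither passed the threshold. In RPKM, IL4R overlapped, with 5.82 in QHMM replicate 1 and 5.40 in STH replicate 3. IL2RG, the chain that joins IL4R on lymphocytes, had 164, 190.1 and 69.6 in QHMM and 106, 72.2 and 78.0 in STH (-0.72, SE 0.36, edgeR FDR 0.308).

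The receptor of interleukin 17 is built from IL17RA and IL17RC. IL17RC had normalized counts of 74.7, 89.7 and 78.9 in QHMM and 143, 179 and 102 in STH, and the breeds did not overlap (0.80, SE 0.27, edgeR FDR 0.141). IL17RA had 121, 202 and 119 in QHMM and 203, 115 and 267 in STH, which overlapped (0.41, SE 0.34, edgeR FDR 0.559). No read was found for IL17A or IL17F.

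**Figure D4:**
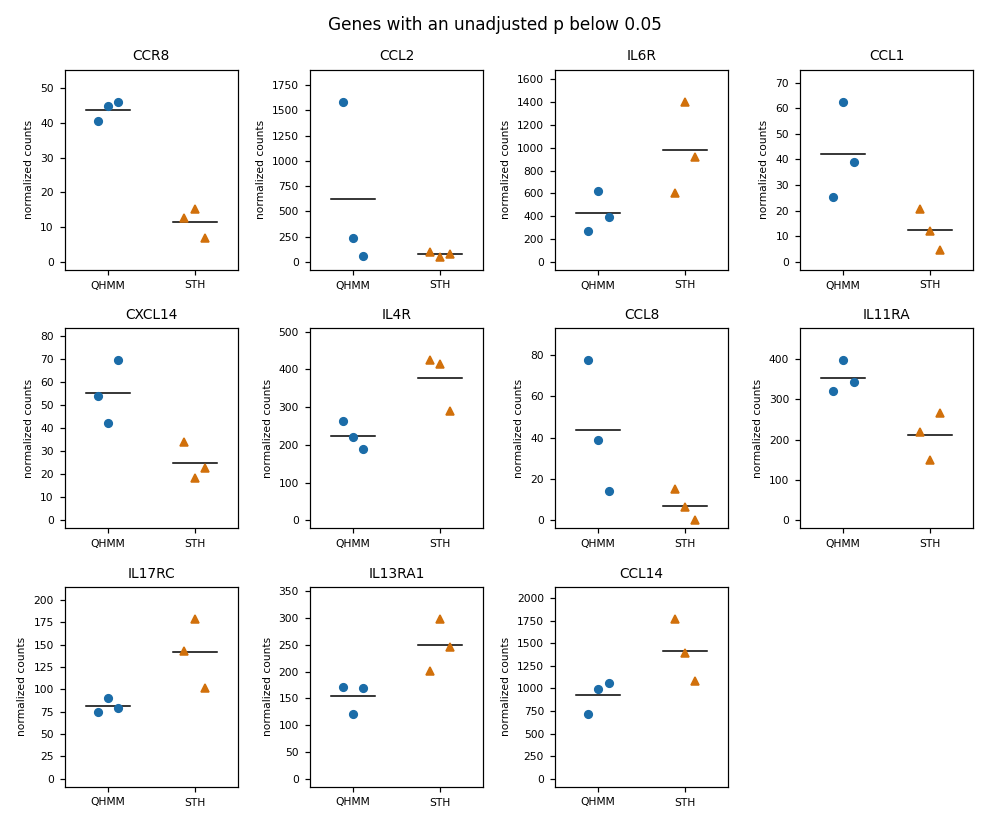
Normalized counts per library of the 11 genes with an unadjusted p below 0.05, in order of p (circles QHMM, triangles STH, left to right replicates 1 to 3, lines the means). In these counts the breeds are apart for CCR8, CCL1, CXCL14, IL4R, IL11RA, IL17RC, IL13RA1 and CCL14 and overlap for CCL2, IL6R and CCL8.

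Receptors of interleukins 2 and 15 and of interleukin 33 overlapped between the breeds. IL2RB had normalized counts of 270.1, 283 and 122 in QHMM and 212, 158 and 70.1 in STH (-0.61, SE 0.41, edgeR FDR 0.468), and IL15RA had 30.6, 35.4 and 25.6 in QHMM and 35.8, 37.7 and 33.9 in STH (0.23, SE 0.33, edgeR FDR 0.753). IL33, an alarm signal of stromal cells, had 36.0, 28.3 and 30.7 in QHMM and 37.5, 23.7 and 13.6 in STH (-0.33, SE 0.42, edgeR FDR 0.716), and its receptor IL1RL1 had 16.2, 10.6 and 4.10 in QHMM and 18.3, 8.62 and 21.5 in STH (0.63, SE 0.57, edgeR FDR 0.599). IL34 and IL16, with IL33 the interleukins deep enough to test, stood at 0.04 (SE 0.50, edgeR FDR 0.977) and 0.02 (SE 0.25, edgeR FDR 0.981). IL34, a ligand of the macrophage growth receptor CSF1R, varied widely within a breed, with 59.4, 138 and 78.9 in QHMM and 84.9, 33.4 and 165 in STH. CSF1R stood at -0.55 (SE 0.28, edgeR FDR 0.306). IL16, a ligand of CD4, was the steadier, with 93.7, 123 and 88.1 in QHMM and 91.6, 109.9 and 106 in STH.

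The other 14 tested genes had log2 fold changes between -1.17 and 0.58 with edgeR FDRs of at least 0.295 and breeds that overlapped. They were CCL16, CCL17, CCL23, CCL24, CCL26, CXCL9, CXCL10, IL1R1, IL3RA, IL10RA, IL17RD, IL21R, IL18BP and IL4I1. Their mean levels ran from 0.438 to 7.06 RPKM.

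Some inflammatory genes were high in QHMM replicate 1 alone. They were picked after their values were seen and carry no test. IL6 had 69, 0 and 0 reads in QHMM and 6, 1 and 2 in STH. IL1RN, the interleukin 1 receptor antagonist, had 55, 2 and 6 reads in QHMM and 9, 7 and 6 in STH. IL-1B, which is not a member by its spelling, had 45, 2 and 4 reads in QHMM and 1, 2 and 1 in STH. CXCL1, a neutrophil attractant, had 10, 0 and 1 reads in QHMM and 0 in every STH library. In normalized counts, QHMM replicate 1 exceeded the next highest library 12.4 times for IL6, 6.57 times for IL1RN, 9.89 times for IL-1B and 8.79 times for CXCL1. Other inflammatory genes differed. TNF had 8, 7 and 10 reads in QHMM and 0, 1 and 1 in STH, and OSM had 26, 0 and 0 in QHMM and 3, 0 and 24 in STH. Of the 43 tested genes, 8 were highest in QHMM replicate 1 (18.6%, beside 16.0% of all tested genes).

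This was counted over all 64 of these genes with at least 10 reads in some library. In QHMM replicate 1, 8 of them (12.5%) exceeded every other library more than 2-fold (CCL2, CCL4, CCL19, CCR7, CXCL1, IL6, IL10 and IL1RN), beside 1.61% of all 13623 genes with such reads. Of the 8, CCL4, CCL19, CXCL1, IL6, IL10 and IL1RN reached 10 reads in QHMM replicate 1 alone. They were thus counted through the values in which they stand out, and the share carries no test. In STH replicate 2 the count was 3 (IL1RAP, IL12A and IL25), which is 4.69%, beside 1.08% of all genes with such reads. These 3 reached 10 reads in STH replicate 2 alone, so that this share carries no test either. In the other 4 libraries the count was 0, beside 0.323% to 0.749% of all genes. Adipocyte markers were also highest in QHMM replicate 1, with a summed level of 447 RPKM against 86.8 to 199.6 RPKM in the other 5 libraries. Of these 8 markers edgeR called 4, all lower in STH (ADIPOQ, PLIN1, CIDEC and LEP), and DESeq2 called LPL as well, and their part in the values of CCL2, IL6 and the other genes was not tested.

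**Figure D5:**
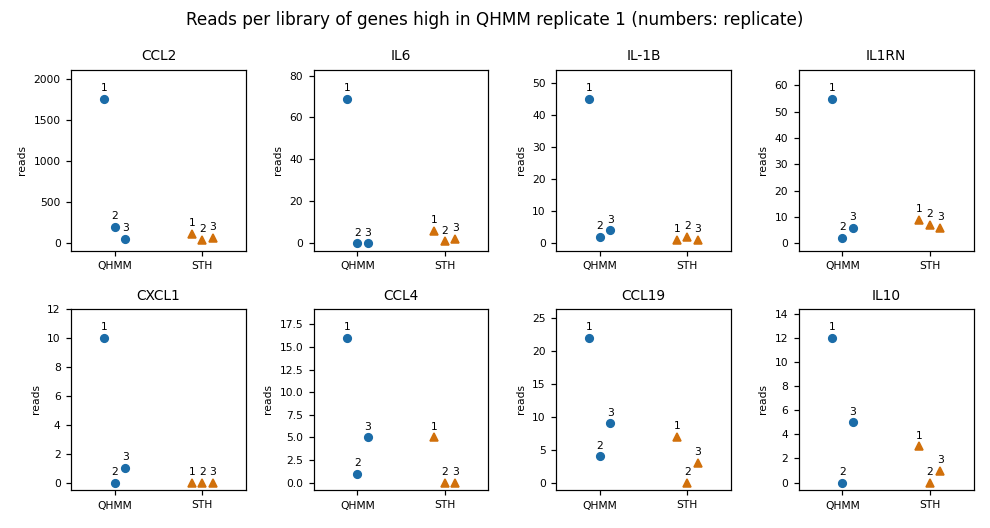
Reads per library of 8 genes with their highest count in QHMM replicate 1 (circles QHMM, triangles STH, digits the replicate). IL6 has 69 reads there and at most 6 in any other library, and CCL2 has 1762 reads there and at most 201 elsewhere.

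The 56 genes with reads that were not tested had too few of them, and 20 of the 56 had at most 3 reads in every library. In normalized counts, the breeds did not overlap for 8 of the 56 (14.3%, beside 9.84% of all 5162 genes with reads that were not tested). These were 5 lower (CCL22, CXCR3, IL12RB2, IL15 and IL23A) and 3 higher in STH (CCR4, IL22RA1 and IL31RA), named after their values were seen. For IL12RB2, IL22RA1 and IL31RA the breeds met at the same number of reads, 2, 1 and 1, and were apart only after scaling. IL15, an interleukin known to be expressed in muscle, had 13, 7 and 14 reads in QHMM and 4, 5 and 3 in STH. IL23A, which joins IL12B to form interleukin 23, had 11, 5 and 15 reads in QHMM and 2, 3 and 4 in STH. CCR4, a receptor of skin-homing and type 2 helper T cells, had 6, 6 and 2 reads in QHMM and 14, 18 and 8 in STH. When all 99 genes with a read were fitted without the filter, 4 were called (CCR8, CCL2, CCL8 and IL6R), all among the 43. That is 4.04%, beside 4.56% of all genes with a read.

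Of the other cell type lists, 0 genes were called by edgeR. Tested were 6 endothelial, 9 fibroblast, 4 B and plasma cell and 3 granulocyte and mast cell markers, with median log2 fold changes of 0.22, -0.45, -0.17 and -0.02, and 0 of 3 blood markers passed the filter. An unadjusted p below 0.05 was found for 1 endothelial marker, higher, and for 1 higher and 2 lower fibroblast markers, and DESeq2 called the fibroblast genes COL1A1 and PI16, both lower. PAX5 and TNFRSF17 of the B cell list and SLC4A1 of the blood list had no read.

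Genes that act with these families were taken from fixed lists. Of 7 other chemokines and chemokine receptors tested, 0 were called by edgeR and 2 had an unadjusted p below 0.05, both lower and both called by DESeq2. These were XCL1, made by T and NK cells (18.9, 24.8 and 23.6 normalized counts in QHMM, 6.66, 6.47 and 4.52 in STH, -1.89, edgeR FDR 0.0501), and its receptor XCR1 of dendritic cells (30.6, 54.3 and 16.4 in QHMM, 9.16, 7.54 and 7.91 in STH, -2.01, edgeR FDR 0.0610). For both, every STH library was below every QHMM library. Of 16 other cytokines and receptors tested, 0 were called by edgeR or DESeq2 and 2 had an unadjusted p below 0.05 by edgeR, both lower.

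Downstream of the receptors, 2 of 22 tested adaptors and NF-kB factors were called by edgeR, 1 in each direction, and 3 by DESeq2 (TRAF3IP2 as well, higher). IRAK2, a kinase of interleukin 1 and Toll-like receptors, fell (125, 98.0 and 69.6 normalized counts in QHMM, 24.1, 30.2 and 23.7 in STH, -1.91, edgeR FDR 0.0143). IKBKG, the regulatory subunit of the IkB kinase, rose (299, 364 and 163 in QHMM, 464, 1039 and 832 in STH, a log2 fold change of 1.499, edgeR FDR 0.0463). Of 10 tested genes that interleukins and chemokines are known to induce, 1 was called by edgeR and 3 by DESeq2 (CEBPB and CEBPD higher, IRF1 lower). CEBPD, a transcription factor induced by interleukin 6 and also by glucocorticoids, rose from 518, 315 and 57.3 in QHMM to 2364, 2379 and 2991 in STH (3.12, edgeR FDR 0.0213). The medians of the adaptors and of the induced genes were 0.09 and -0.09.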

How the data were processed

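Per the study's methods, reads were aligned to Oar 3.1 of sheep and those with a unique position were kept. The authors deposited counts per gene, without normalization, and RPKM values scaled by gene length and library total. The aligner, the counting program, its use of strand and the annotation are not given in the sources used here. Reads shared by near-identical chemokine genes, or by overlapping genes, may be lost or misplaced. Of the RPKM values, 25 rows whose names had become dates were left out.

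Counts were tested in R 4.3.3 with edgeR 4.0.16 (TMM, filterByExpr on breed, glmQLFit, glmQLFTest, breed as the only term), since EBSeq, the program of the study, was not installed. A gene was called at an FDR below 0.05 over all 12506 tested genes and an absolute log2 fold change above 0.585 (1.5-fold). The SE was derived from the fold change and the F statistic. Normalized counts are counts per TMM-scaled library, times the median library total. The single-gene exact permutation test cannot go below p = 0.1 with 3 against 3 and was not used. The code was also run on counts simulated from dispersions fitted to these data, with planted changes and no outlying library. That run cannot show how the test behaves with a library such as QHMM replicate 1. Alternatives used DESeq2 1.42.0 and limma 3.58.1.

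Genes named are those called, with an unadjusted p below 0.05, with the 10 highest mean RPKM or the 5 largest changes, and fixed ligand and receptor pairs with both genes tested. The members and lists were chosen with earlier results of these data known. RefSeq symbols matched 108 of the 120 genes. No sequences were analysed here. The values of some genes are not reported here.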

Additional observations from a re-analysis of the deposited data

How the results depend on the processing

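CCR8 was lower in STH under all 13 alternatives that tested it and was called under 6 of them (FDR 0.00300 to 0.0962 over the 13). It was not tested at 10 counts or more in every library. Over all genes, 432 calls became 975 with DESeq2 (420 higher) and 806 without a filter (366 higher). Among the members, 1 call became 3 with DESeq2 (CCL1, CCR8 and IL6R), 4 without a filter, 0 with edgeR at 10 counts or more in every library (8 at an unadjusted p below 0.05), and 0 with limma-trend on log2(RPKM + 1) and log2(RPKM + 0.1) (11 and 16). Limma moved the median of all genes to 0.12 in both settings, and 212 of 346 and 184 of 299 calls were then higher in STH, against 203 of 432. With the replicate block, 457 genes and 3 members (CCL8, CCR8 and IL6R) were called. Replicate numbers only name animals (correlations of same-numbered deviations 0.226, -0.04 and -0.13). Leaving out 1 library gave 131 to 535 genes and 0 to 3 members called, with 131 genes without QHMM replicate 1, 208 without QHMM replicate 2, 150 without QHMM replicate 3 and 183 without STH replicate 2. Detection fell from 58 members to 28 at 10 or more reads in all 6 libraries. Of 29 named members, 6 changed sign, and none of these was called. With all 6 libraries, IL16 went to -0.0029 (DESeq2), -0.0049 (upper-quartile) and -0.014 (10 counts), IL27RA to -0.012 (10 counts) and -0.0019 (replicate block), CXCL16 to 0.0027 (replicate block), 0.11 and 0.12 (limma), and IL34 to -0.067 (replicate block) and -0.035 (limma, 0.1). With 1 library left out, the ranges were -0.57 to 0.30 for CCR2, -0.24 to 0.13 for CXCL16, -0.074 to 0.18 for IL16, -0.13 to 0.16 for IL27RA, -0.62 to 0.45 for IL34 and -0.15 to 0.35 for IL6ST. The cause of these changes was not tested. The 20 members with at most 3 reads in every library were too shallow for the main test.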
